A study of Mus musculus with 12 samples.

Results

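The genes described here form the circuit in which the coactivators PGC-1α and PGC-1β work with the estrogen-related receptors (ERRs), the nuclear respiratory factors and the PPARs. The 10 genes were *Perm1*, *Ppargc1a*, *Ppargc1b*, *Esrra*, *Esrrb*, *Esrrg*, *Nrf1*, *Gabpa*, *Ppara* and *Ppard*, out of 55367 gene symbols listed. They were taken by name, with earlier results of these data known, and all 10 were among the 14425 genes tested. Normalised transcript levels (TPM, corrected for transcript length and library size) were given for 12 samples of single myofibers from the extensor digitorum longus (EDL), a fast hindlimb muscle, of male C57BL/6J mice. There were 4 samples of young fibers (3 to 4 months) and, from aged mice (26 to 28 months), 4 of Fluo-4 normal fibers and 4 of Fluo-4 abnormal fibers. The labels name no transgene or drug in any group. Fluo-4 is a fluorescent Ca2+ indicator, and the abnormal fibers were those with unusually bright staining, picked out under a fluorescence stereomicroscope. The labels do not say how many fibers or mice a sample holds, so the p-values measure the spread between these samples only.

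PGC-1α and PGC-1β bind transcription factors and raise the output of genes for mitochondria and fatty acid oxidation. In muscle their main partners are ERRα and ERRγ, nuclear receptors without a known natural ligand that bind the sequence AAGGTCA. NRF1 and GABPα (also called NRF2α) drive nuclear genes of the respiratory chain and of mitochondrial DNA transcription, and PPARα and PPARδ drive genes of lipid use. *Perm1* (PPARGC1 and ESRR induced regulator, muscle 1) is itself switched on by PGC-1 and the ERRs, is restricted largely to skeletal muscle and heart, and feeds back on the same oxidative program.

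The stretch before the *Perm1* start site is shown because *Perm1* was lower in all 4 Fluo-4 abnormal samples than in any other sample and is a known target of the ERRs. RefSeq start sites were matched for 9 of the 10 genes. In the 250 bases upstream of each start, the ERR half-site AAGGTCA or its reverse complement TGACCTT was present in 4.08% of 32851 mouse promoters. Of the 9 genes matched it was found for *Perm1* alone, 202 bases before the start, in reverse orientation. The sequence below is chr4:156215677-156215926, plus strand, RefSeq build GRCm38.p6, and capitals mark the half-site.
Perm1: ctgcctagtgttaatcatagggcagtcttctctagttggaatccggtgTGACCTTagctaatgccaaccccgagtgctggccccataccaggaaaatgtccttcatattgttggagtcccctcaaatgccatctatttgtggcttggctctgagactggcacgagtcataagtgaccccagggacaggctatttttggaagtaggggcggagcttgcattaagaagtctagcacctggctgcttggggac
The longer element TCAAGGTCA, which contains the half-site, was present in 0.387% of promoters and for none of these 9 genes. The core NRF1 sequence CGCATGCG, its own reverse complement and held by 1.55% of promoters, was found for *Gabpa* 8 bases and for *Ppara* 30 bases before the start. Both stretches are shown because NRF1 is a member of the circuit, and capitals mark the core. They are chr16:84835094-84835123 and chr15:85735724-85735775, plus strand, same build.
Gabpa: ctcttggagacactgcactgtaCGCATGCG
Ppara: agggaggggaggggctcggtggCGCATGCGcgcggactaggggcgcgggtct
The sequence CCGGAAG, of the kind that GABPα binds, was present on either strand in 6.91% of promoters and was found for *Gabpa*, 93 bases before its start. A match says only that these letters are present, and no binding was measured.

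All 12 samples were muscle by their markers: *Acta1*, *Ckm*, *Mylpf* and *Tnnt3* together made up 103885 to 136912 TPM. By myosin transcripts the samples were mainly of the fast 2B type. *Myh4* made up 93.7 to 99.7% of the TPM of the 4 adult myosin heavy chains (*Myh1*, *Myh2*, *Myh4* and *Myh7*), and slow *Myh7* did not pass 0.205 TPM. A share per sample does not give the type of each fiber. The *Myh4* share was 96.9 to 98.6% in young, 93.7 to 99.2% in Fluo-4 normal and 98.9 to 99.7% in Fluo-4 abnormal fibers. Mitochondrially encoded genes took 7.35 to 8.01% of TPM in young, 8.75 to 10.9% in Fluo-4 normal and 4.75 to 6.92% in Fluo-4 abnormal fibers. Among markers of other cells, endothelial markers (4 genes) summed to 17.5 to 33.1, 38.1 to 117 and 9.55 to 69.4 TPM in these groups, and immune markers (4 genes) to 0.718 to 1.47, 4.97 to 14.4 and 7.17 to 11.2 TPM. Fibroblast markers summed to 18.0 to 33.0, 23.1 to 77.9 and 13.2 to 58.4 TPM, and red cell hemoglobins to 30.7 to 114, 110 to 455 and 40.9 to 220 TPM, in the same order of groups. Over all samples, satellite cell markers summed to 6.60 to 14.2 TPM, smooth muscle and pericyte markers to 3.13 to 63.5 and Schwann markers to 0.448 to 2.21. Of 3 adipocyte genes, *Adipoq* and *Plin1* were at 0 in every sample, and *Cfd* was above 0 only in Fluo-4 normal samples, where it reached 2.77 TPM. Across all genes tested, 1349 differed at an adjusted p under 0.05 between Fluo-4 abnormal and normal fibers, 1062 of them higher. When samples were rescaled so that most genes stayed level (TMM-type factors), 849 differed and 306 of them were higher. The median change of all genes was 0.10 (log2) as deposited and 0 after rescaling. Every log2 change below is on the log2(TPM + 1) scale, which understates the change of genes near or below 1 TPM.

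*Perm1* was the most abundant of the 10 genes in each group, followed by *Esrra* and *Ppargc1a*. In young fibers the mean levels were 51.6 TPM for *Perm1*, 27.5 for *Esrra* and 14.5 for *Ppargc1a*, with no overlap between neighbours in that order. Next came *Nrf1* (7.74 TPM), *Gabpa* (7.11), *Ppara* (4.74) and *Ppargc1b* (4.48), whose samples overlapped from each gene to the next. *Esrrg* (1.37 TPM) and *Ppard* (1.12) were lower and overlapped each other, and *Esrrb* was close to 0. The order changed in the Fluo-4 abnormal fibers, where *Perm1* (23.9 TPM) overlapped *Esrra* (20.4) and *Esrrg* (0.682) ranked below *Ppard* (1.41), with which it overlapped.

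**Figure D1:**
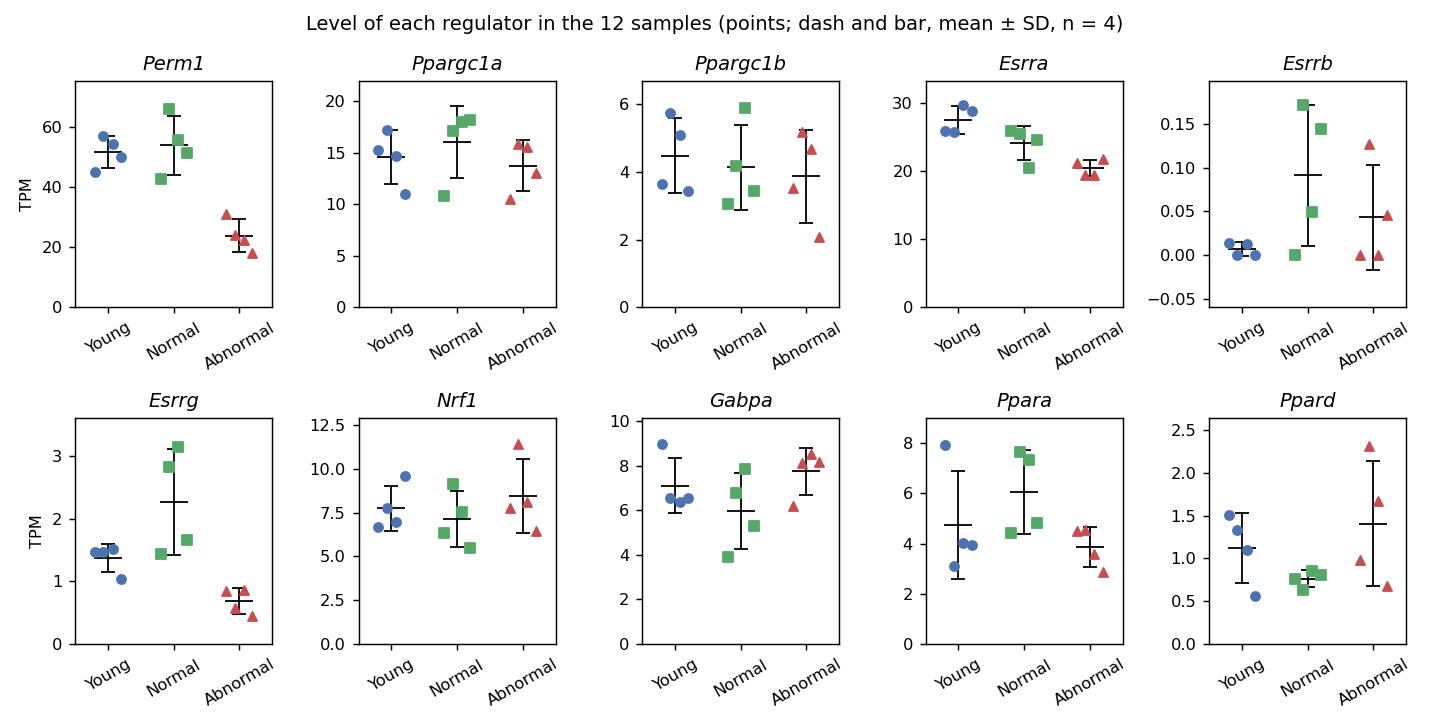
TPM of each gene (vertical axis, linear, separate scale per gene) in young, aged Fluo-4 normal and aged Fluo-4 abnormal fibers. Points are samples, and the dash and bar are the mean ± SD of 4 samples. *Perm1* and *Esrrg* lie lower in all 4 Fluo-4 abnormal samples than in any other sample, while *Ppargc1a* and *Ppargc1b* overlap between all groups.

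Among the coactivators, *Perm1* alone stood apart between Fluo-4 abnormal and normal fibers. *Perm1* (ENSMUSG00000078486.5, chr4:156300325-156314305, plus strand, GRCm39) was at 45.1, 57.1, 54.2 and 49.9 TPM in the young samples. It was at 42.5, 65.9, 55.4 and 51.3 TPM in the Fluo-4 normal samples. It was at 31.0, 24.0, 22.2 and 18.2 TPM in the Fluo-4 abnormal samples. Every abnormal sample was below every other sample, and young and normal samples overlapped fully. The mean was 2.26-fold lower in Fluo-4 abnormal than in normal fibers (log2 change −1.15, SE 0.15, 95% interval −1.48 to −0.82, n = 4 per group). It was 2.16-fold lower than in young fibers (log2 change −1.10, SE 0.15). The study singled out *Perm1* for being lower in these same samples and negatively associated with sarcopenia in human data. Because these samples took part in that choice, neither difference is given a p-value. The study also reported lower *Perm1* in Fluo-4 abnormal than in normal fibers by qRT-PCR. Set against the median gene, the changes were −1.25 and −1.17. Of the 14425 genes tested, 31 had a lower log2 change than *Perm1* between Fluo-4 abnormal and normal fibers.

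The aged samples carry replicate numbers, and samples of the same number deviated together (correlations of 0.33 to 0.49 across genes), so that same-numbered samples can be compared as pairs. *Perm1* was lower in the abnormal sample of all 4 pairs, by −0.45, −1.42, −1.28 and −1.45 (log2) for numbers 1 to 4. The pair with number 1 showed the smallest difference. Its Fluo-4 normal sample had a *Myh4* share of 99.2%, within the range of the abnormal samples, and the lowest *Perm1* level of the Fluo-4 normal samples. That sample also had the lowest TMM-type factor of all samples (0.809, beside 0.961 to 0.998 in the other Fluo-4 normal samples). The part of this scaling in the small difference was not tested. With the *Myh4* share as a covariate the log2 change was −0.88 (SE 0.20), and with both the share and the pairing it was −0.59. Rescaled samples gave −1.37. Over 22 alternatives the change stayed below 0. The part of the fiber type in the *Perm1* difference was not tested beyond these fits.

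In aged Fluo-4 normal against young fibers, *Perm1* did not pass the test (log2 change 0.05, SE 0.15, 95% interval −0.28 to 0.38, adjusted p = 0.941). The study's selection also drew on these young and normal samples, so this value is not independent of the choice of *Perm1*. The interval does not include a change of the size seen in the abnormal fibers.

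*Ppargc1a*, which encodes PGC-1α, did not pass the test in any of the 3 comparisons. *Ppargc1a* (chr5:51611592-51725068, minus strand, GRCm39) was at 15.2, 17.2, 14.7 and 11.0 TPM in young samples. It was at 10.8, 17.1, 18.0 and 18.1 TPM in Fluo-4 normal samples and at 10.5, 15.8, 15.5 and 13.1 TPM in Fluo-4 abnormal samples. The lowest normal and lowest abnormal sample both carried number 1, and all 3 groups overlapped. The log2 change between Fluo-4 abnormal and normal fibers was −0.20 (SE 0.18, 95% interval −0.59 to 0.19, adjusted p = 0.526). It was below 0 in all 4 pairs (−0.04 to −0.44), with a blocked estimate of −0.20 (SE 0.09, adjusted p = 0.247). Rescaled samples gave −0.41 (adjusted p = 0.117), and the *Myh4* share as a covariate gave 0.03 (adjusted p = 0.942). The data therefore leave a drop of up to 0.59 on the log2 scale within the interval, and do not show that the level was the same.

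*Ppargc1b*, which encodes PGC-1β, lay between 2.09 and 5.88 TPM in all 12 samples. Its log2 change was −0.10 (SE 0.24, adjusted p = 0.838) between Fluo-4 abnormal and normal fibers and −0.20 (SE 0.24, adjusted p = 0.676) against young fibers. It was lower in 2 and higher in 2 of the 4 pairs. The log2 ratio of *Ppargc1a* to *Ppargc1b*, a balance that does not depend on the scaling of a sample apart from the added 1 TPM, was 1.51 ± 0.20 in young, 1.73 ± 0.29 in Fluo-4 normal and 1.63 ± 0.38 in Fluo-4 abnormal fibers (mean ± SD, n = 4). These ratios overlapped between all groups.

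Among the ERRs, *Esrrg* was lower in Fluo-4 abnormal than in normal fibers, and *Esrra* was lower in Fluo-4 abnormal than in young fibers. *Esrrg* encodes ERRγ, the receptor most associated with oxidative fibers, and lies at chr1:187340988-187947082 (plus strand, GRCm39). It was at 1.46, 1.47, 1.51 and 1.03 TPM in young samples and at 1.44, 2.82, 3.14 and 1.66 TPM in Fluo-4 normal samples. It was at 0.846, 0.577, 0.860 and 0.443 TPM in Fluo-4 abnormal samples. As with *Perm1*, every abnormal sample was below every other sample, and the Fluo-4 normal samples were the most spread. The mean was 3.32-fold lower in Fluo-4 abnormal than in normal fibers, and the log2 change of TPM + 1 was −0.93 (SE 0.18, 95% interval −1.32 to −0.54, limma adjusted p = 0.00823). Set against the median gene, the change was −1.03, and 49 of the genes tested had a lower one.

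*Esrrg* was lower in the abnormal sample of all 4 pairs (−0.40, −1.28, −1.16 and −0.88 for numbers 1 to 4), and passed the test with the pairing as a block (adjusted p = 0.0454). It no longer passed with the *Myh4* share as a covariate (log2 change −0.59, SE 0.23, adjusted p = 0.137) or with both (−0.39, adjusted p = 0.388). Over all 21 alternatives the adjusted p ran from 0.0025 to 0.388. As for *Perm1*, the smallest paired difference belonged to Fluo-4 normal sample 1, with the highest *Myh4* share of its group and the lowest TMM-type factor (0.809). The part of either was not tested. *Esrrg* was highest, at 2.82 and 3.14 TPM, in the samples with the lowest shares (93.7 and 95.2%). The *Myh4* share and the Fluo-4 class were therefore not separate in these samples: only Fluo-4 normal sample 1 reached the shares of the abnormal ones.

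**Figure D2:**
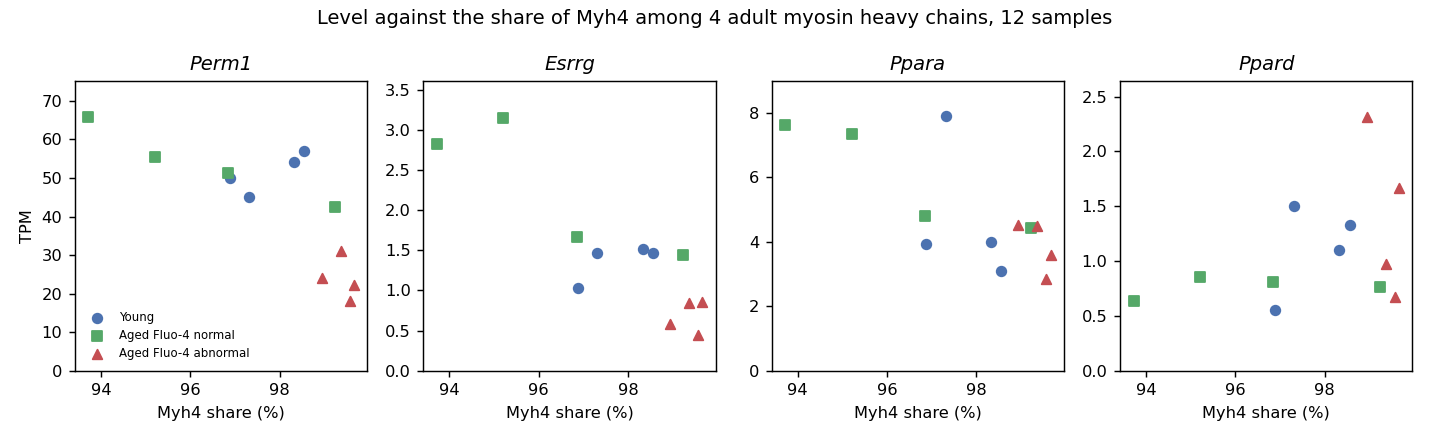
TPM of *Perm1*, *Esrrg*, *Ppara* and *Ppard* (vertical axes, linear) against the percentage of *Myh4* in the summed TPM of *Myh1*, *Myh2*, *Myh4* and *Myh7* (horizontal axes, starting above 90%). Each point is a sample. The 4 Fluo-4 abnormal samples sit between 98.9 and 99.7%, where a single Fluo-4 normal sample (99.2%) lies above all of them for *Perm1* and *Esrrg*.

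Against young fibers, *Esrrg* was 2.01-fold lower in mean TPM in Fluo-4 abnormal fibers, without overlap, but did not pass the test (log2 change −0.50, SE 0.18, adjusted p = 0.114). It passed with rescaled samples (adjusted p = 0.0489) and when only the groups compared were fitted (adjusted p = 0.0414), within a range of 0.0414 to 0.298 over its alternatives. In Fluo-4 normal against young fibers the log2 change was 0.43 (SE 0.18, unadjusted p = 0.0338, adjusted p = 0.326 by limma), and the samples overlapped.

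*Esrra* encodes ERRα, the most abundant ERR in these fibers, and lies at chr19:6888338-6899336 (minus strand, GRCm39). It was at 25.8, 25.8, 29.7 and 28.8 TPM in young samples, at 25.8, 25.5, 20.4 and 24.6 TPM in Fluo-4 normal samples and at 21.2, 19.5, 19.4 and 21.7 TPM in Fluo-4 abnormal samples. Abnormal and young samples did not overlap, whereas 1 Fluo-4 normal sample (number 3) fell within the abnormal range. *Esrra* was 1.34-fold lower in Fluo-4 abnormal than in young fibers (log2 change −0.41, SE 0.09, limma adjusted p = 0.0154). This call held in 19 of 20 alternatives and was lost without young sample 4 (adjusted p = 0.0536).

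Between Fluo-4 abnormal and normal fibers *Esrra* did not pass (log2 change −0.22, SE 0.09, unadjusted p = 0.0305, adjusted p = 0.146 by limma), although it was lower in all 4 pairs (−0.07 to −0.37). Without Fluo-4 normal sample 3 it passed (adjusted p = 0.0424), and over 22 alternatives the adjusted p ran from 0.0424 to 0.494. Between Fluo-4 normal and young fibers the change was −0.19 (SE 0.09, adjusted p = 0.414). The mean of the Fluo-4 normal samples (24.1 TPM) thus lay between those of young (27.5) and abnormal samples (20.4), and neither step alone passed the test.

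*Esrrb* encodes ERRβ, known from embryonic stem cells and the inner ear. It was listed at 0 in 5 of the 12 samples and did not pass 0.172 TPM in the others, so no fold change is given. The log2 ratio of *Esrra* to *Esrrg* was 3.59 ± 0.20 in young, 2.97 ± 0.49 in Fluo-4 normal and 3.68 ± 0.22 in Fluo-4 abnormal fibers (mean ± SD, n = 4). The balance of the 2 receptors was thus closest in Fluo-4 normal fibers, with an overlap at the Fluo-4 normal sample of number 1 (3.46).

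**Figure D3:**
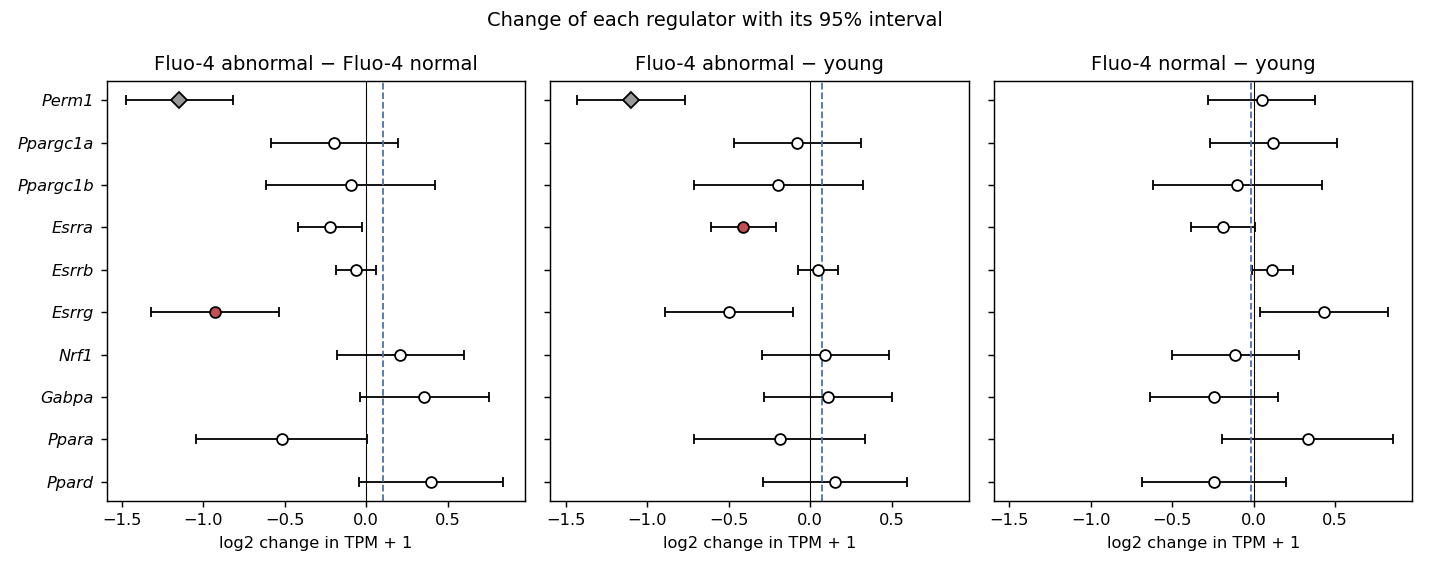
Log2 change in TPM + 1 of each gene (horizontal axis) for the 3 comparisons, with the 95% interval of the limma fit and n = 4 per group. Filled circles passed an adjusted p of 0.05, open circles did not, grey diamonds are *Perm1* where no p is given, the solid line is 0 and the dashed line is the median of all genes tested. *Esrrg* (left) and *Esrra* (middle) are the filled circles, and none is filled on the right.

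Neither nuclear respiratory factor passed the test in any comparison. *Nrf1* lay between 6.70 and 9.57 TPM in young, 5.49 and 9.14 in Fluo-4 normal and 6.43 and 11.4 in Fluo-4 abnormal samples. Its log2 change between Fluo-4 abnormal and normal fibers was 0.21 (SE 0.18, adjusted p = 0.506), which became 0.01 in rescaled samples. It was above 0 in all 4 pairs (0.09 to 0.29), with a blocked SE of 0.09 (adjusted p = 0.220). *Gabpa* was at 3.91, 6.75, 7.83 and 5.31 TPM in Fluo-4 normal samples and at 6.17, 8.12, 8.51 and 8.15 TPM in Fluo-4 abnormal samples, against 6.36 to 8.97 TPM in young samples. Its log2 change was 0.36 (SE 0.18, adjusted p = 0.244) and was above 0 in all 4 pairs. With the *Myh4* share as a covariate it reached 0.77 (adjusted p = 0.0523), within a range of 0.0523 to 0.668 over 22 alternatives. *Gabpa* shares 1995 exonic bases with *Atp5j* (ATP synthase factor 6) on the other strand, and the libraries do not keep strand. *Atp5j* was at 983 to 2112 TPM, far above *Gabpa*. It was lower in Fluo-4 abnormal than in normal fibers (log2 change −0.59, limma adjusted p = 0.0162 over all annotated genes). Reads of either gene could therefore not be told apart in that stretch.

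The log2 changes of the PPARs between Fluo-4 abnormal and normal fibers had opposite signs, and neither passed the test. *Ppara*, a driver of fatty acid oxidation genes, was at 4.42, 7.63, 7.34 and 4.80 TPM in Fluo-4 normal samples and at 4.50, 4.52, 3.58 and 2.86 TPM in Fluo-4 abnormal samples. The young samples were at 7.92, 3.10, 4.01 and 3.93 TPM, the first of them well above the others. The log2 change was −0.52 (SE 0.24, 95% interval −1.04 to 0.01, adjusted p = 0.202), lower in 3 of 4 pairs. It was −0.70 in rescaled samples (limma adjusted p = 0.110), −0.52 with the pairing as a block (adjusted p = 0.145) and −0.02 with the *Myh4* share as a covariate (adjusted p = 0.979). *Ppard*, the main PPAR of oxidative muscle, was at 0.762, 0.633, 0.853 and 0.811 TPM in Fluo-4 normal samples and at 0.977, 2.31, 1.67 and 0.673 TPM in Fluo-4 abnormal samples. Its log2 change was 0.40 (SE 0.21, 95% interval −0.04 to 0.84, adjusted p = 0.243), higher in 3 of 4 pairs.

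The log2 ratio of *Ppara* to *Ppard* did not overlap between Fluo-4 normal and abnormal samples, though the nearest values were close (1.62 and 1.48). The ratio was not tested or fitted with the *Myh4* share, and *Ppard* was below 1 TPM in every Fluo-4 normal sample. It was 1.62, 2.40, 2.17 and 1.68 in Fluo-4 normal samples and 1.48, 0.74, 0.78 and 1.21 in Fluo-4 abnormal samples. The young samples (1.83, 0.81, 1.26 and 1.66) overlapped both. *Ppara* shares 1803 exonic bases with *Cdpf1* on the other strand, which was at 36.7 to 44.7 TPM in aged samples. *Cdpf1* did not pass the test (log2 change −0.09, limma adjusted p = 0.523 over all annotated genes).

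Between Fluo-4 abnormal and normal fibers, 1 of the 9 genes other than *Perm1* passed the test (*Esrrg*, lower), beside 9.35% of all genes tested, 7.36% being higher and 1.99% lower. Groups without overlap were found for *Perm1* and *Esrrg* alone, beside 14.0% of all genes. Against young fibers, 1 of 9 passed (*Esrra*, lower), beside 8.51% of all genes, 6.09% being higher and 2.41% lower, and groups without overlap were found for *Perm1*, *Esrra* and *Esrrg* (3 of 10), beside 16.2% of all genes. Between Fluo-4 normal and young fibers, 0 of the 10 passed by limma, beside 1.15% of all genes, 0.562% being higher and 0.589% lower. At an unadjusted p under 0.05 there was 1 member (*Esrrg*), beside 1865 of the 14425 genes tested. The samples of every member overlapped between these groups, whereas 7.99% of all genes had no overlap. The share of these genes that passed the test was therefore close to that among all genes in either direction. Both calls were lower, a direction called for 1.99% and 2.41% of all genes. Each rested on 1 gene, too few to compare such shares. The comparisons share samples and are not independent of each other.

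Known targets of this circuit were more often lower than higher in Fluo-4 abnormal than in normal fibers. Of 39 listed targets, all of which were tested, 17 were called lower and 1 higher, called meaning an adjusted p under 0.05. Called or not, 33 had a log2 change below 0 and 6 above. The median log2 change was −0.36, beside 0.10 for all genes and 0.20 for those with at least 1 TPM in some group. Of the latter genes, 10.7% were called higher and 2.86% lower. Rescaled samples gave 25 lower and 0 higher, whereas 10 targets were called with only the groups compared and 9 with the *Myh4* share as a covariate. The study picked *Ckmt2* (mitochondrial creatine kinase) on these samples together with human sarcopenia data. It was at 1164 ± 172 TPM in Fluo-4 normal and 319 ± 130 in abnormal fibers (log2 −1.94, no p given). Without it, 16 of 38 were called lower. The study also drew out oxidative genes on these samples, so the direction of the list is not independent evidence.

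The targets with the smallest p next to *Ckmt2* were *Slc25a4*, the ADP/ATP carrier of the inner mitochondrial membrane, and *Acadm*, medium-chain acyl-CoA dehydrogenase. *Slc25a4* was at 3299 to 3526 TPM in Fluo-4 normal and 2265 to 2525 in abnormal samples (log2 change −0.53, SE 0.07, adjusted p = 0.000729). *Acadm* was at 212 to 259 TPM in Fluo-4 normal and 129 to 163 in abnormal samples (log2 change −0.70, SE 0.09, adjusted p = 0.000894). Over alternatives the adjusted p rose to 0.256 and 0.263, both in the fit with pairing and *Myh4* share, in which no gene of the whole table passed.

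The targets were grouped by function after the values were seen. Of the respiratory chain and ATP synthase, 6 of 8 genes were called lower, and of the citric acid cycle 2 of 4. Of fatty acid uptake and oxidation, 6 of 9 were called lower. Both genes of ATP and phosphocreatine transfer (*Slc25a4* and *Ckmt2*) and 1 of 12 other targets were also called lower. The log2 change was below 0 in 8, 4, 9, 2 and 9 genes of these groups, in the same order. The genes of fatty acid uptake included *Cd36*, a fatty acid transporter (38.1 to 73.3 TPM in Fluo-4 normal, 12.5 to 27.0 in abnormal samples), which endothelial cells also express. The summed endothelial markers, at 38.1 to 117 TPM in Fluo-4 normal and 9.55 to 69.4 in abnormal samples, moved the same way with overlap, and their part in *Cd36* was not tested. None of the 4 genes of mitochondrial DNA transcription was called lower: *Tfb2m*, a transcription initiation factor, was the single target called higher (log2 change 0.34, adjusted p = 0.0317; 0.11 in rescaled samples), and *Tfam*, which packages mitochondrial DNA, did not pass (0.07, adjusted p = 0.651).

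Against young fibers, 12 of the 39 targets were called lower and 0 higher in Fluo-4 abnormal fibers (median log2 change −0.25 beside 0.07). Of all genes, 2.41% were called lower and 6.09% higher there. Without *Ckmt2*, 11 of 38 targets were called lower. The study's selection also drew on the young samples, so this direction is not independent evidence either. In Fluo-4 normal against young fibers 2 targets were called higher and 0 lower (median 0.09 beside −0.02), where 0.562% of all genes were called higher and 0.589% lower. These were *Slc25a20*, the mitochondrial carnitine carrier (log2 change 0.53, adjusted p = 0.0166, up to 0.0723 over alternatives), and *Cd36* (1.05, adjusted p = 0.0499, up to 0.188 over alternatives). The summed endothelial markers were also higher there, at 38.1 to 117 TPM in Fluo-4 normal and 17.5 to 33.1 in young samples without overlap, and their part in *Cd36* was not tested.

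**Figure D4:**
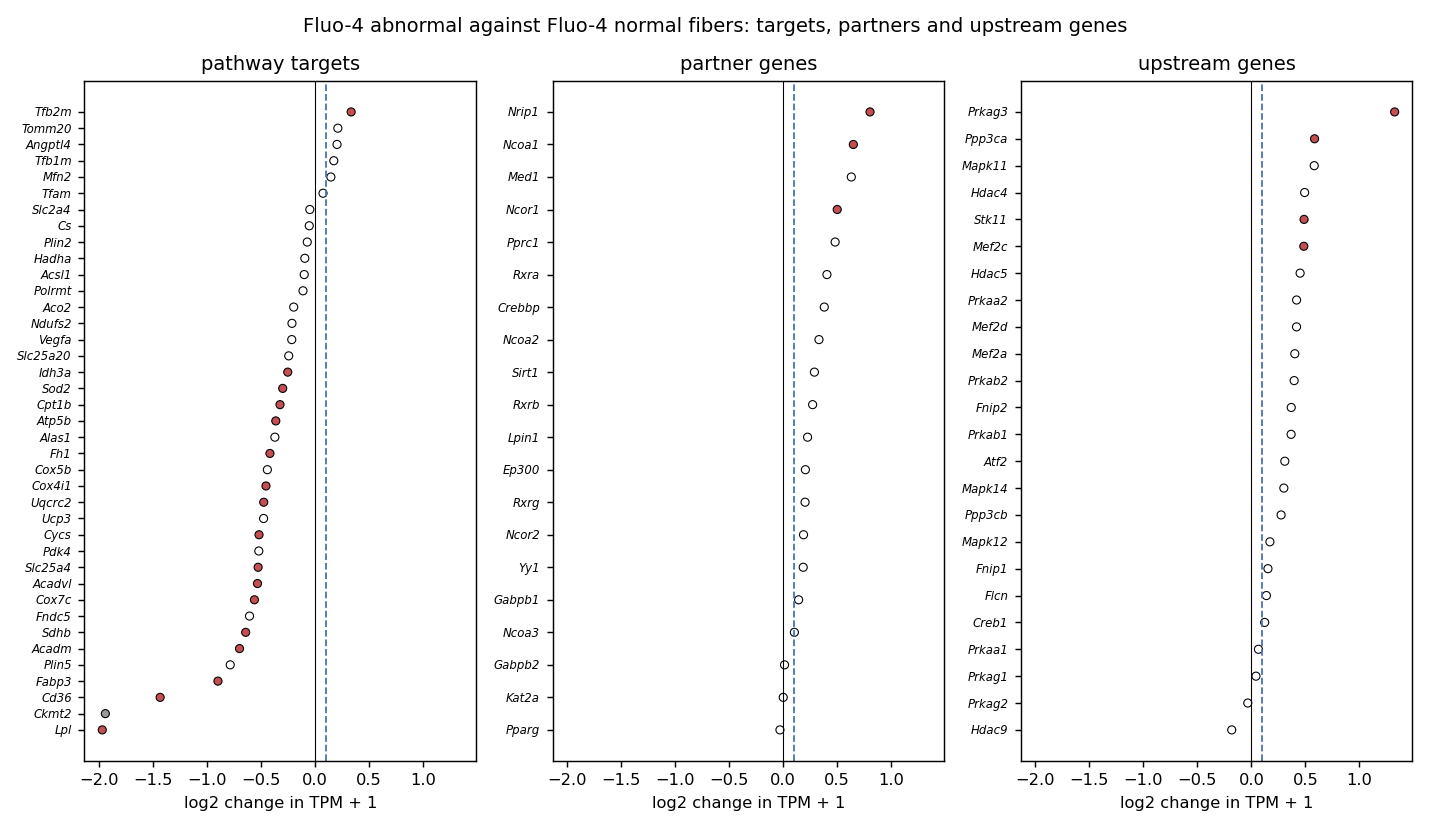
Log2 change in TPM + 1 between Fluo-4 abnormal and normal fibers (horizontal axis) for each gene of the 3 lists, ordered by value. Filled circles passed an adjusted p of 0.05, open circles did not, the grey circle is *Ckmt2* (no p given), and the dashed line is the median of all genes tested (0.10). Targets lie mostly left of 0, whereas partners and upstream genes lie mostly right of it. Genes with at least 1 TPM in some group had a median of 0.20, also right of 0.

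The calls among partner genes were few. Of 20 coregulators and receptor partners, 3 were called higher and 0 lower in Fluo-4 abnormal than in normal fibers. This was 15%, beside 7.36% of all genes and 10.7% of those with at least 1 TPM that were called higher. The count was 2 in rescaled samples, 1 with only the groups compared and 0 without Fluo-4 abnormal sample 2. The list's median change (log2) was 0.25 and became 0.07 in rescaled samples. For all genes with at least 1 TPM in some group these medians were 0.20 and 0.01. *Nrip1* (RIP140), a corepressor of oxidative genes in muscle, was at 9.21 to 17.7 TPM in Fluo-4 normal and 23.1 to 26.9 in abnormal samples (log2 change 0.80, SE 0.18, adjusted p = 0.0142), and was also higher than in young fibers (0.73, adjusted p = 0.0224). *Ncor1*, another corepressor of this program, was at 25.4 to 40.4 and 43.7 to 56.0 TPM (0.50, SE 0.15, adjusted p = 0.0466; 0.28 in rescaled samples, and adjusted p up to 0.256 over alternatives). *Ncoa1*, a coactivator of nuclear receptors, was at 4.80 to 7.66 and 7.84 to 10.8 TPM (0.65, SE 0.14, adjusted p = 0.0145; 0.45 in rescaled samples). Over alternatives the adjusted p rose to 0.387 for *Ncoa1* and to 0.256 for *Nrip1*. *Ncoa1* was lower in Fluo-4 normal than in young fibers (−0.72, adjusted p = 0.0306, up to 0.114 over alternatives), so that abnormal fibers were near the young level (9.46 to 10.9 TPM).

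The upstream genes relay energy and Ca2+ signals to PGC-1α. Of 24 tested (25 listed), 4 were called higher and 0 lower between Fluo-4 abnormal and normal fibers (16.7%, beside the same 7.36% and 10.7%). The median log2 change was 0.37 and became 0.17 in rescaled samples, where 2 genes passed. For all genes with at least 1 TPM in some group these medians were 0.20 and 0.01. The count was 1 without Fluo-4 abnormal sample 2 or with only the groups compared. *Prkag3*, the γ3 subunit of AMP-activated protein kinase typical of fast fibers, rose from 63.8 to 161 TPM on average (log2 change 1.33, SE 0.17, adjusted p = 0.000772), against 98.5 TPM in young fibers. *Ppp3ca*, a catalytic subunit of the Ca2+-dependent phosphatase calcineurin, rose from 69.5 to 105 TPM (0.59, SE 0.12, adjusted p = 0.0116). *Mef2c*, of the MEF2 family of transcription factors known to act on the *Ppargc1a* promoter, rose from 176 to 246 TPM (0.49, SE 0.13, adjusted p = 0.0304; 0.26 in rescaled samples). Over alternatives the adjusted p rose to 0.256 for *Prkag3* and to 0.260 for *Ppp3ca* and *Mef2c*. In Fluo-4 normal against young fibers 0 of 24 passed by limma, with 4 at an unadjusted p under 0.05, beside 1865 of the 14425 genes tested. In rescaled samples 2 were called lower there, where 236 of all genes were called.

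The genes whose pattern across the 12 samples was most like that of *Perm1* were *Pde4a*, *Rcan2*, *Fuom*, *Sh3kbp1* and *Homer2*. Likeness was the mean absolute difference of log2(TPM + 1), each gene centred on its own mean, and was 0.14 to 0.20 for these genes beside a median of 0.58 over 6347 candidates. *Pde4a* was at 18.7 ± 2.2 TPM in young, 16.0 ± 1.9 in Fluo-4 normal and 8.56 ± 1.53 in abnormal fibers. *Rcan2*, a regulator of calcineurin, was at 19.3 ± 3.5, 16.2 ± 4.0 and 7.30 ± 0.85 TPM. Among the 10 genes themselves, *Esrrg* was nearest to *Perm1* (0.25) and *Ppard* farthest (0.64).

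For *Esrrg* the nearest genes were *Tmem65*, *Coq8a* and the mitochondrially encoded *mt-Nd5*, a complex I subunit (0.14 to 0.17, median of candidates 0.44). *mt-Nd5* was at 1488 ± 52 TPM in young, 1883 ± 225 in Fluo-4 normal and 1163 ± 187 in abnormal fibers, so that its mean, like that of *Esrrg*, was highest in Fluo-4 normal fibers. For *Esrra* they were *Glrx*, *Ndufs6* and *Tomm5* (0.06 to 0.08, median 0.28). *Ndufs6*, a nuclear-encoded complex I subunit, was at 815 ± 57, 811 ± 84 and 673 ± 29 TPM. These distances are descriptions of patterns in 12 samples, and genes with small changes lie near each other by this measure. The added 1 TPM also shrinks the changes of low genes such as *Esrrg* and *Ppard*. Genes near *Esrrg* by this measure therefore need not share its fold change. Mean TPM in Fluo-4 normal and abnormal fibers was 2.26 and 0.682 for *Esrrg*, and 49.1 and 31.9 for *Tmem65*.

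**Figure D5:**
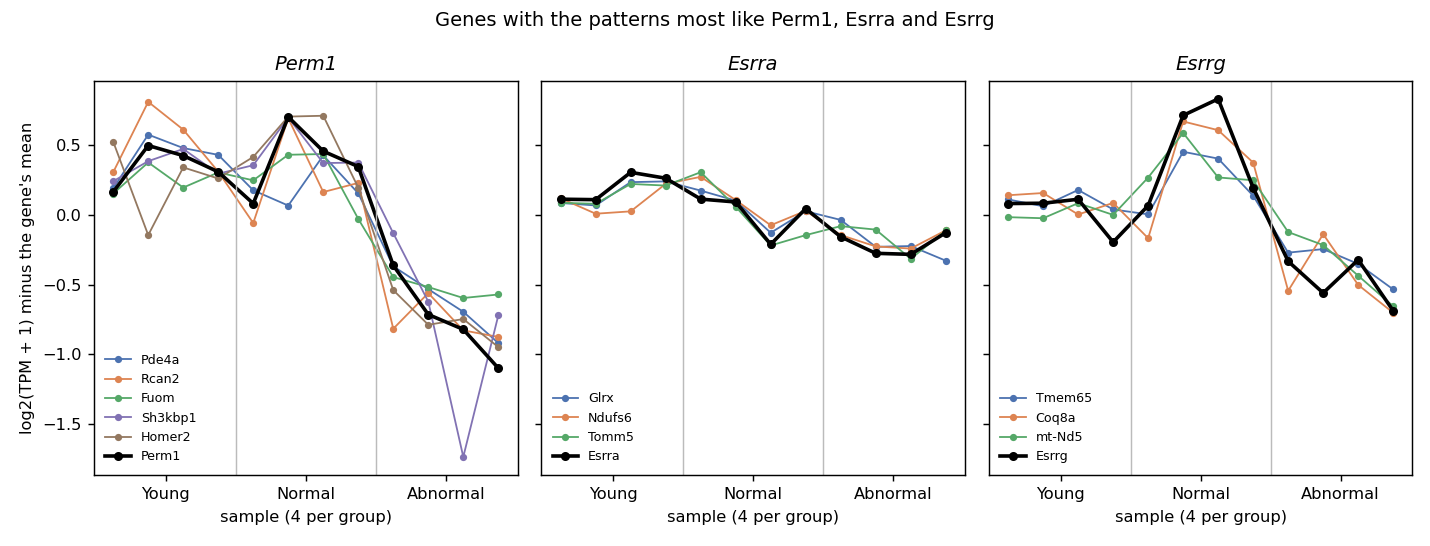
Log2(TPM + 1) of each gene minus its own mean (vertical axis) in the 12 samples, ordered by group, for *Perm1*, *Esrra* and *Esrrg* (black) and the genes nearest to each (colours). Lines only join the points of a gene, since samples of a group have no order. The black *Perm1* and *Esrrg* lines drop below 0 in all 4 Fluo-4 abnormal samples, and *Esrrg* is higher in 3 of the 4 Fluo-4 normal samples than in any young sample.

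Annotation limits apply to several of the genes. No near-identical copy was found for any of the 10 (at least 95% identity over at least 50% of the transcript). At least 100 exonic bases were shared with a protein-coding gene on the other strand for *Perm1* (*Plekhn1*, 193 bases, and *Klhl17*, 146 bases) and for *Esrra* (*Trmt112*, 1479 bases). *Plekhn1* was at 2.23 to 4.25 TPM, below every *Perm1* value, whereas *Trmt112* was at 45.2 to 64.7 TPM, above every *Esrra* value. *Trmt112* was not called in Fluo-4 abnormal fibers against Fluo-4 normal (log2 change 0.24, adjusted p = 0.146) or young fibers (0.10, adjusted p = 0.603), by limma over all annotated genes. Its reads could not be told apart from those of *Esrra* in the shared stretch. No such overlap was found for *Ppargc1a*, *Esrrg* or *Nrf1*, and noncoding genes on the other strand overlapped exons of *Ppargc1b* (279 bases), *Esrrb* (209 and 242), *Gabpa* (241) and *Ppard* (355).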

How the data were processed

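RNA from isolated EDL myofibers (10 ng per library) was amplified with SMART-Seq v4, which reads whole transcripts without strand. Per the study's methods, the authors aligned reads to GRCm39 with DRAGEN 4.3 and computed the deposited TPM values, which sum to 1000000 per sample. Read counts were not used here, so depth is unknown and TPM shows only relative levels. Each file listed 55487 entries, and entries sharing a symbol were summed (114 symbols). Protein-coding and mitochondrially encoded genes (GENCODE vM39 and RefSeq names) with a group mean of at least 0.02 TPM in at least 1 group were tested, as log2(TPM + 1), with limma 3.58.1 in R 4.3.3 (a means model of the 3 groups over 12 samples, variance trend, Benjamini-Hochberg adjustment over 14425 genes, threshold 0.05). The fit was tested on simulated data. Precision is given as the SE from 4 samples per group.

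Replicate numbers come from the sample titles, and neither labels nor methods say what they mark. Deviations of same-numbered aged samples correlated at 0.33 to 0.49 over 4760 genes of at least 10 TPM, those of different numbers at −0.42 to 0.27, and the numbers were taken as pairs. The members and gene lists were chosen with earlier results of these data known. Named were all members, the 3 genes of each list that had the lowest p between Fluo-4 abnormal and normal fibers, the genes most like *Perm1* (5) and each called member (3) among tested genes of at least 5 TPM, and the adult myosins; *Cd36*, *Slc25a20*, *Tfb2m*, *Tfam* and genes overlapping a member were named after their values were seen. Alternatives were TMM-type factors, scaling without mitochondrially encoded genes, a pseudocount of 0.1, no filter, a filter of 5 TPM, all annotated genes, only the groups compared, the *Myh4* share as a covariate, the replicate block, the block with the *Myh4* share (chosen after seeing the data) and leaving out each sample. The adjusted p-values of *Atp5j*, *Cdpf1* and *Trmt112* came from the fit of all annotated genes (22367 genes). Transcript copies were sought with BLAST 2.17.0.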

Additional observations from a re-analysis of the deposited data

Results flagged for a closer look

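In 4 of the 30 groups of 4 samples (10 genes in 3 groups), 1 sample lay apart from the others by Dixon's test, which by chance picks about 1 in 20 groups. *Ppargc1a* was lowest in Fluo-4 normal sample 1, at 10.8 TPM beside 17.1 to 18.1 in the other samples of the group. *Esrrg* was lowest in young sample 4, at 1.03 TPM beside 1.46 to 1.51. *Gabpa* was highest in young sample 1, at 8.97 TPM beside 6.36 to 6.56, and lowest in Fluo-4 abnormal sample 1, at 6.17 TPM beside 8.12 to 8.51. Leaving out Fluo-4 normal sample 1 or young sample 4 did not change the call of *Ppargc1a* or *Esrrg* between Fluo-4 abnormal and normal fibers.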

How the results depend on the processing

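The lower *Esrrg* in Fluo-4 abnormal than in normal fibers passed in 19 of 21 alternatives and the lower *Esrra* than in young fibers in 19 of 20. The count of called members in abnormal against normal fibers was 1, but 0 with a filter of 5 TPM, which removes *Esrrg*, 0 with the *Myh4* share and 0 with the block and share together. It was 1 to 2 over left-out samples (2 without Fluo-4 normal sample 3). Against young fibers it was 1, but 2 with TMM-type factors or only the groups compared, and 0 to 1 over left-out samples (0 without young sample 4). In normal against young fibers it was 0 in all alternatives. The replicate block alone gave 1 called member, 17 targets, 2 partners and 4 upstream genes, and changed no other member's call.

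Called targets numbered 18, but 10 with only the groups compared, 9 with the *Myh4* share and 0 with block and share (13 to 19 over left-out samples). Called partners numbered 3, but 5 with the 5 TPM filter, 1 with only the groups compared and 0 with block and share (0 to 4, the 0 without Fluo-4 abnormal sample 2). Called upstream genes numbered 4, but 2 with TMM-type factors, 2 without mitochondrially encoded genes, 8 with the 5 TPM filter, 2 with all annotated genes, 1 with only the groups compared and 0 with block and share (1 to 5, the 1 without Fluo-4 abnormal sample 2). Over all genes, the 1349 calls between abnormal and normal fibers became 849 with TMM-type factors, 850 without filter, 567 with only the groups compared, 821 with the *Myh4* share and 0 with block and share (2462 at an unadjusted p under 0.05), and 606 to 1420 over left-out samples. The cause of these shifts was not tested.

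Small changes that passed no test reversed in some fits. In abnormal against normal fibers, the *Myh4* share gave log2 changes of 0.035 for *Ppargc1a*, 0.087 for *Ppargc1b* and 0.035 for *Esrrb*, and block and share gave −0.088 for *Ppard*. Against young fibers, the *Myh4* share gave 0.042 for *Ppargc1a* and 0.073 for *Ppara*, and TMM-type factors gave −0.062 for *Nrf1* and −0.043 for *Gabpa*. In normal against young fibers, the *Myh4* share gave −0.083 for *Perm1*. Over left-out samples, *Ppargc1b* ran from −0.227 to 0.106 in abnormal against normal fibers. Against young fibers, *Ppargc1a* ran from −0.197 to 0.036, *Ppargc1b* from −0.327 to 0.0058, *Nrf1* from −0.047 to 0.201, *Ppara* from −0.327 to 0.047 and *Ppard* from −0.016 to 0.313. In normal against young fibers, *Perm1* ran from −0.054 to 0.153 and *Ppargc1b* from −0.251 to 0.0066. With a pseudocount of 0.1 the mean log2 ratio of *Esrra* to *Esrrg* was 4.25 in young, 3.42 in normal and 4.76 in abnormal fibers, and that of *Ppara* to *Ppard* 1.97, 2.80 and 1.51. Depth is unknown, so the precision of low genes such as *Esrrb* rests on 4 samples per group alone.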

Other observations

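*Myh1*, the myosin of fast 2X fibers, was at 147 to 262 TPM in young, 46.2 to 542 in Fluo-4 normal and 44.3 to 147 in Fluo-4 abnormal samples, so the Fluo-4 normal samples spanned the widest range. *Myh4*, the myosin of 2B fibers, was at 8311 to 10381, 6254 to 9813 and 10770 to 15574 TPM, with every abnormal sample above every other sample. Against young fibers, 3 of the 24 upstream genes tested were called higher and 0 lower in Fluo-4 abnormal fibers, beside 6.09% and 2.41% of all genes. They were *Mef2c* (log2 change 0.58, adjusted p = 0.0145), *Prkag3* (0.71, adjusted p = 0.0215) and *Ppp3ca* (0.48, adjusted p = 0.0289). In rescaled samples 2 were called, and the list's median log2 change went from 0.13 to −0.04. For all genes with at least 1 TPM in some group these medians were 0.14 and −0.01.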
